A study of Mus musculus with 8 samples.

Results

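The genes of DNA damage sensing and repair were followed in CD8+ T cells taken from tumors and from lymph nodes (LN) of the same tumor-bearing mice, with and without ionizing radiation (IR). The set holds 41 genes chosen by symbol, of which 40 had a probe set that names only that gene (*Xrcc2*, a helper of strand exchange in homologous recombination, was not analysed here), out of 18193 genes measured on the arrays. A gene with several probe sets was read through the brightest over all arrays. The 41 genes fall into 8 groups by role: damage sensing and checkpoint (8 genes), homologous recombination (8), end joining (5), base excision and single-strand break repair (10), mismatch repair (2), nucleotide excision repair (4), the Fanconi anemia pathway (3) and post-replication repair (1). Expression was measured on 8 Affymetrix Mouse 430 2.0 arrays in 4 groups of 2 arrays: tumor T cells with IR, tumor T cells without IR, LN T cells with IR and LN T cells without IR. The series description names 2 independent experiments, but no label says whether the replicate number marks the experiment. All mice were C57BL/6 females, aged 6 to 8 weeks at the injection of MC38 colon carcinoma cells under the skin of the flank. The irradiated mice had received 5 Gy to the whole body 5 h before the organs were taken, and the others no IR. Each array holds RNA of CD8+CD44+CD62L- T cells, an antigen-experienced phenotype, pooled from 4 mice and purified by positive magnetic selection and sorting. Tumors were dissociated with enzymes and spun in Percoll, and LN were pressed through a mesh, so tissue and preparation cannot be told apart.

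IR breaks the DNA backbone. The kinases Atm and Atr sense breaks and stalled forks and signal through Chek1 and Chek2, while Mdc1, Trp53bp1 and the Rad50-Nbn complex gather at the lesion. Broken ends are rejoined directly by the Ku proteins, DNA-PK, Xrcc4 and ligase IV, or copied from the sister chromatid by homologous recombination, a route tied to S phase. Damaged bases and nicks are handled by glycosylases, Apex1, Parp enzymes, Xrcc1 and ligases. Dividing T cells transcribe many of these genes as part of the replication program, and p53 drives a separate response to IR.

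Values are log2 intensities, on which a difference of 1 is 2-fold. Transcripts of T cell identity did not pass the test in any comparison of tissues or of IR (0 of 11 genes called), and *Cd8a* stood between 12.09 and 12.67 on all arrays. After IR 10 of the 11 lay below 0 in tumor T cells (median log2 fold change -0.29, against 0.09 over all genes) and 9 of the 11 in LN T cells (median -0.34, against 0.01). IR was visible in p53 targets, of which 5 of 19 rose in tumor T cells and 15 of 19 in LN T cells. Over all genes 0.0989% were called in tumor and 1.05% in LN T cells, in either direction. The median log2 fold change of the targets was 1.47 in tumor and 1.66 in LN T cells. For 17 of 19 in tumor T cells both arrays with IR lay above both without (41.4% of all genes). In LN T cells 16 of 19 did (21.8%). *Cdkn1a*, the p21 cell cycle inhibitor, was at 11.93 and 12.02 in tumor T cells with IR, 9.60 and 10.45 in tumor T cells without IR, 11.96 and 11.54 in LN T cells with IR and 7.91 and 7.89 in LN T cells without IR. Markers of macrophages and monocytes were higher in tumor samples (13 of 15 genes called, with or without IR), with array means of 9.01 and 10.39 in tumor samples with IR, 10.25 and 11.02 in tumor samples without IR, 6.55 and 6.88 in LN samples with IR and 6.35 and 6.75 in LN samples without IR. Fibroblast markers were also higher in tumor samples (6 of 11 called with IR and 5 of 11 without), with array means of 8.29 to 8.74 in tumor and 6.22 to 6.54 in LN samples. Markers of B cells were lower in tumor samples (3 of 9 called, with or without IR). Their array means were 6.27 to 6.58 in tumor and 7.10 to 7.79 in LN samples. Of 8 carcinoma markers 2 were called higher in tumor samples, *Cdh1* and *Sox9*, with or without IR. The list means were 6.74 to 7.04 in tumor and 6.10 to 6.46 in LN samples. Without IR 5 of the 8 lay below 0 in tumor against LN samples (median -0.17), and with IR 1 of 8 (median 0.16). Replicate 2 of both LN groups was low in a list of 19 mitosis genes. Its list mean was 7.95 with IR (9.89 on replicate 1) and 9.04 without IR (10.21 on replicate 1). The 4 tumor arrays were at 9.68 to 9.89. *Mki67*, a proliferation marker, was at 11.10 on replicate 1 and 8.21 on replicate 2 of LN T cells with IR, at 11.89 and 7.92 in LN T cells without IR, and between 11.16 and 11.50 on the 4 tumor arrays. In these bulk samples fewer cells of a type and less RNA per cell cannot be told apart.

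**Figure D1:**
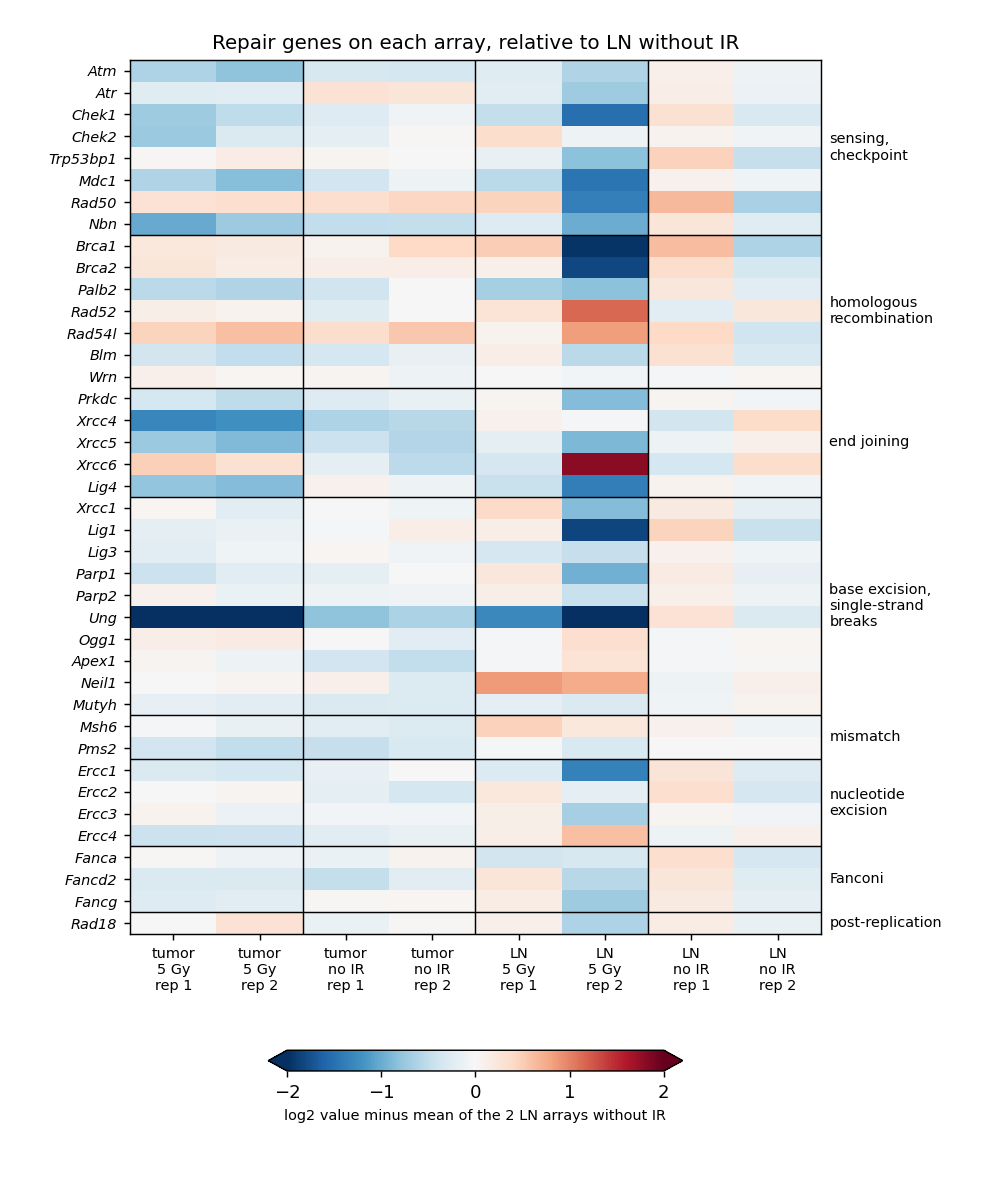
Each row is 1 of the 40 measured repair genes and each column 1 array, ordered by role and group. Color gives the log2 value minus the mean of the 2 arrays of LN T cells without IR (scale limited to -2 and 2). Replicate 2 of LN T cells with IR is the column with the strongest blue, *Ung* is the row furthest below 0 on each of the 4 arrays with IR, and *Xrcc4* is lowest on the 2 arrays of tumor T cells with IR.

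The promoters of 4 members are shown as examples. *Ung* was called after IR and *Xrcc4* was called between the tissues. *Mdc1* and *Brca2* were not called in the main fit. They are 2 of the 7 members found with an E2F-like motif, of the kind found at replication genes, shown in capitals. The sequences are RefSeq's for GRCm38.p6, from 250 bases before to 50 after the start of transcription, written along the gene's strand, for *Ung* at chr5:114130185-114130484 (+), *Xrcc4* at chr13:90089559-90089858 (-), *Mdc1* at chr17:35841248-35841547 (+) and *Brca2* at chr5:150522371-150522670 (+).
Ung: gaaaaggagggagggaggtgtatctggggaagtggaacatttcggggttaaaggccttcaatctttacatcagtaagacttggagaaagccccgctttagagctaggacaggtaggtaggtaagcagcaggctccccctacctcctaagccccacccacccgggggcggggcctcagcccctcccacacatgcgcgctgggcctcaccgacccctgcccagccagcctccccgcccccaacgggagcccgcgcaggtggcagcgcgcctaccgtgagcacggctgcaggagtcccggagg
Xrcc4: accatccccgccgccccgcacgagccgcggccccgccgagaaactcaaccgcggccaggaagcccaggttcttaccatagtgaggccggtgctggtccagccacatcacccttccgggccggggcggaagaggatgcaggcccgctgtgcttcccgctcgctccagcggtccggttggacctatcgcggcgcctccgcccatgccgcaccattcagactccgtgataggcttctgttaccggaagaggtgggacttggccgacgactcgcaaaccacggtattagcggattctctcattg
Mdc1: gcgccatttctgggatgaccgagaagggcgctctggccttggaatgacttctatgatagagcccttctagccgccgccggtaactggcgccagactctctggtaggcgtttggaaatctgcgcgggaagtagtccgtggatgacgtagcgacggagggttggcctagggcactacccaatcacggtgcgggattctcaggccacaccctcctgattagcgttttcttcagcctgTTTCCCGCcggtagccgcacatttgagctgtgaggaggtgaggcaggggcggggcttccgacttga
Brca2: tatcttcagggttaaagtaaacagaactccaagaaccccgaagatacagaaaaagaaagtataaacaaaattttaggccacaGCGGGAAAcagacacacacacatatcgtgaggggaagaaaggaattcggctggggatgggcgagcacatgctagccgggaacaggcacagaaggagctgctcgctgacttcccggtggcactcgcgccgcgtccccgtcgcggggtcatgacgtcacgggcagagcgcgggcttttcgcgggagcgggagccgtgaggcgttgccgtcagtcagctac
The motif was searched as TTTCCCGC, TTTGGCGC, TTTCGCGC or TTTGCCGC on both strands. It was found in 7 of the 40 promoters listed for 34 members (17.5%), against 744 of 32851 promoters of the same length over all genes (2.26%). Promoters of the members also had more G and C, with a median of 59.2%, against 52.7% over all promoters, and the part of base composition in the difference was not tested. The 7 promoters belong to *Brca2*, *Chek2*, *Fancg*, *Lig1*, *Mdc1*, *Msh6* and *Xrcc6*. These letters are not in the windows of *Ung* and *Xrcc4* shown here, which says nothing of other sites. No promoter was listed for 7 members (*Rad50*, *Nbn*, *Xrcc2*, *Wrn*, *Prkdc*, *Ercc3* and *Fancd2*).

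The first comparison asked which repair genes differ 5 h after IR in LN T cells. A single member passed the test, *Ung*, and it fell. A gene is called here, and said to rise or fall, if its adjusted p in limma's test (adjusted over all probe sets tested) was below 0.1 and its 2 group means lay at least 2-fold apart. Of all 18193 genes 1.05% were called in LN T cells after IR and 0.264% were called lower, and 1 call supports no statement on the set as a whole. At an unadjusted p under 0.05 there were 9 of 40 members (14.3% of all genes). P-values and intervals here rest on the spread between arrays of pooled cells, taken for each probe set over all 4 groups together.

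*Ung*, the glycosylase that removes uracil from DNA and acts in antibody gene diversification in B cells, had values of 7.53 and 7.97 in tumor T cells with IR, 9.36 and 9.53 in tumor T cells without IR, 8.88 and 7.89 in LN T cells with IR and 10.45 and 9.88 in LN T cells without IR. In both tissues both arrays with IR lay below both arrays without IR. In LN T cells the log2 fold change was -1.78 (SE 0.35, adjusted p = 0.098, 95% interval -2.61 to -0.95). In tumor T cells it was -1.70, a value of like size that did not pass (adjusted p = 0.25, 95% interval -2.53 to -0.87). Same-numbered arrays differed by -1.57 and -1.99 in LN T cells and by -1.83 and -1.56 in tumor T cells. The call in LN T cells is narrow: it was lost on leaving out any 1 array other than replicate 1 of LN T cells with IR (adjusted p 0.131 to 0.283), and the fold change was -1.28 without replicate 2 of LN T cells with IR. It was also lost with the replicate number as a block (adjusted p = 0.117), array weights (0.25), a mean-variance trend (0.109) and only the 4 arrays compared (0.639), and held with robust regression, the fit of the study's methods (0.0303). In tumor T cells *Ung* passed with robust regression (adjusted p = 0.0415), array weights (0.0156), a block within each tissue (0.0751), only the 4 arrays compared (0.0298) and without either array of LN T cells with IR (0.0713). *Ung* has 1 probe set on the array.

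**Figure D2:**
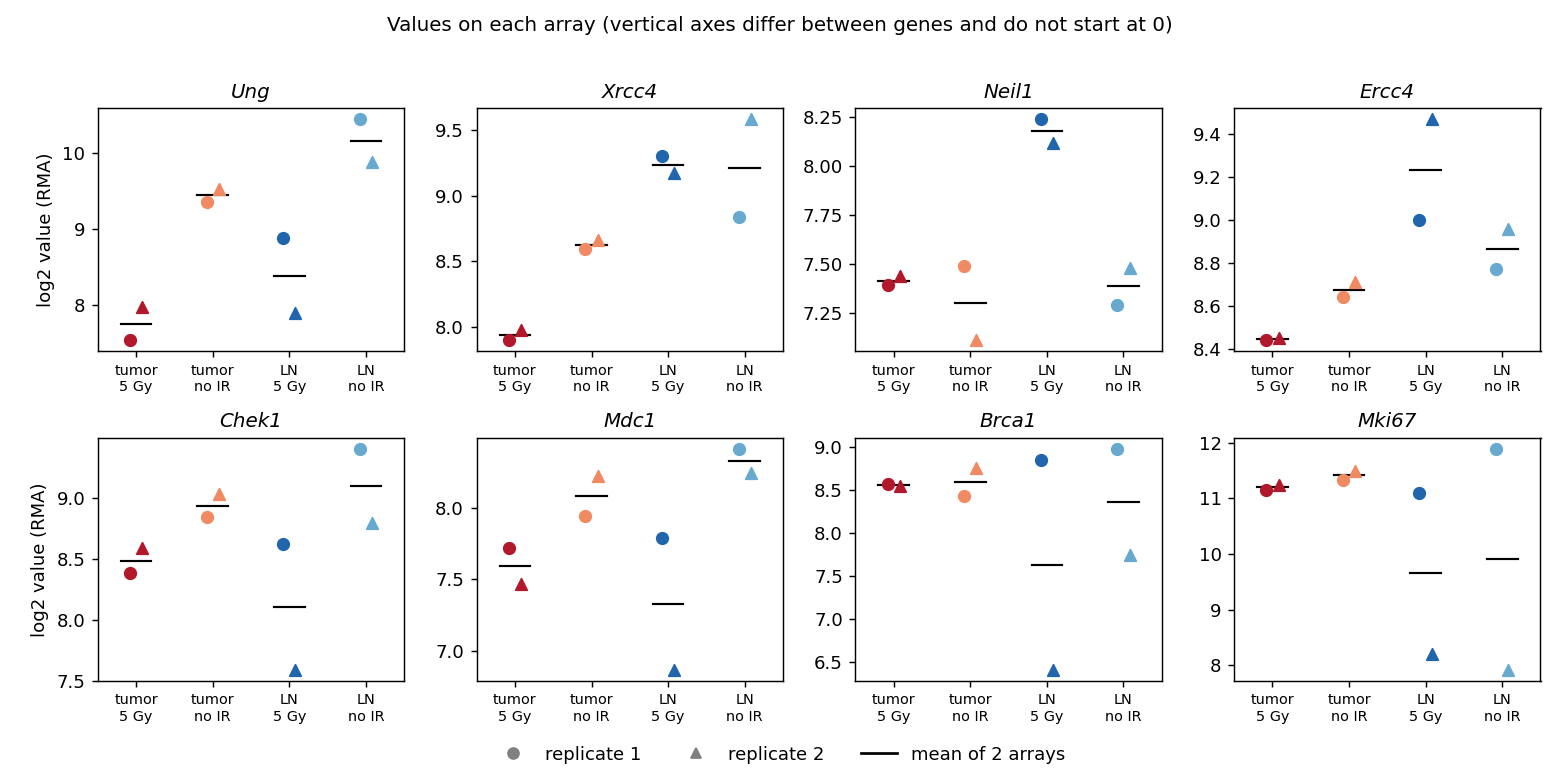
The log2 value of 7 repair genes and of the proliferation marker *Mki67* on each array (circle, replicate 1, triangle, replicate 2, bar, mean of 2 arrays). *Ung* is lower with IR than without IR in both tissues, *Xrcc4* is lower on the 2 arrays of tumor T cells with IR than on the 6 other arrays, and in LN T cells *Chek1*, *Mdc1* and *Brca1* are lower on replicate 2, as *Mki67* is.

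Among the sensing and checkpoint genes, none of 8 passed in LN T cells, and 7 of the 8 had a log2 fold change below 0 (median -0.48, against 0.01 over all genes). *Chek1*, the kinase that acts below Atr, had values of 8.62 and 7.59 in LN T cells with IR and 9.40 and 8.79 in LN T cells without IR. *Mdc1*, the scaffold that binds the phosphorylated histone at breaks, had values of 7.79 and 6.87 with IR and 8.41 and 8.24 without IR. The groups did not overlap for either gene, and the log2 fold change was -0.99 for both (95% interval -1.81 to -0.16 for *Chek1*, -1.69 to -0.30 for *Mdc1*, adjusted p = 0.27 and 0.211). *Atm*, *Atr* and *Nbn* also had both arrays with IR below both without (-0.41, -0.47 and -0.63). For *Nbn* the margin was small, with values of 8.60 and 7.87 with IR and 9.11 and 8.62 without. *Trp53bp1*, which favors end joining over recombination, overlapped between groups (10.73 and 10.06 with IR, 11.35 and 10.42 without). *Rad50*, the partner of Nbn, was at 8.97 and 7.16 with IR and at 9.18 and 7.88 without, a difference between replicates larger than that between groups. *Chek2*, the kinase below Atm, had values of 7.64 and 7.18 with IR and 7.36 and 7.21 without (log2 fold change 0.12).

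In the recombination genes the replicates of LN T cells with IR lay further apart than the groups. *Brca1*, which directs end resection and the loading of the recombinase, was at 8.85 and 6.41 with IR and at 8.98 and 7.75 without IR. *Brca2*, which loads the recombinase, was at 8.23 and 6.30 with IR and at 8.47 and 7.78 without. Their log2 fold changes of -0.73 and -0.86 had standard errors of 0.74 and 0.56, so neither value is measured precisely. *Palb2*, the bridge between Brca1 and Brca2, was steadier, at 7.89 and 7.74 with IR and 8.78 and 8.33 without (log2 fold change -0.74, SE 0.21, adjusted p = 0.201). *Rad52*, an annealing factor, lay the other way, at 9.20 and 10.08 with IR and 8.70 and 9.15 without (0.72, adjusted p = 0.332). *Wrn*, a helicase, was level, at 9.95 and 9.90 with IR and 9.91 and 10.00 without (-0.03, 95% interval -0.36 to 0.29). *Blm*, a related helicase, was at 7.73 and 7.07 with IR and at 7.91 and 7.30 without. *Rad54l*, a motor protein of strand exchange, was at 8.44 and 9.20 with IR and at 8.77 and 7.96 without.

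Of the 5 end joining genes none passed after IR in LN T cells. *Lig4*, the ligase of the pathway, was at 5.66 and 4.72 with IR and 6.18 and 6.03 without, with no overlap (log2 fold change -0.91, adjusted p = 0.231). These values lie close to the lower quartile of the arrays (5.38 to 5.59), so a fold change has no exact size there. *Xrcc5*, a Ku subunit, had values of 8.73 and 8.00 with IR and 8.81 and 9.0 without, again with no overlap (-0.54, adjusted p = 0.364). *Xrcc6*, the other Ku subunit, was at 8.66 and 10.79 with IR and 8.64 and 9.34 without, high on replicate 2. *Prkdc*, the kinase that Ku recruits, was at 8.20 and 7.27 with IR and 8.20 and 8.09 without. *Xrcc4*, the partner of ligase IV, was the same in both groups on average (0.03, 95% interval -0.54 to 0.59).

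In base excision and single-strand break repair, *Neil1*, a glycosylase for oxidized bases, had the largest positive value of any member in LN T cells. It was at 8.24 and 8.12 with IR and at 7.29 and 7.48 without IR. The arrays did not overlap, but the log2 fold change of 0.80 (SE 0.17, 95% interval 0.38 to 1.21) did not pass (adjusted p = 0.124). *Apex1*, the endonuclease that cuts at sites without a base, was at 10.81 and 11.11 with IR and 10.81 and 10.87 without. *Lig1*, the ligase of lagging strand synthesis, was at 9.82 and 7.87 with IR and 10.15 and 9.25 without, so the replicates differed by more than the groups (-0.86, SE 0.58). *Lig3*, the ligase that works with Xrcc1, and *Mutyh*, which removes adenine paired with oxidized guanine, had both arrays with IR below both without (-0.39 and -0.24, adjusted p = 0.295 and 0.456). *Xrcc1*, *Parp1* and *Parp2*, which bind or mark nicks, gave -0.23, -0.37 and -0.17 with overlapping groups, and *Ogg1*, the glycosylase for oxidized guanine, gave 0.15.

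None of the remaining members passed in LN T cells. *Msh6*, which recognizes mismatches, was at 10.09 and 9.84 with IR and 9.72 and 9.54 without (log2 fold change 0.33, adjusted p = 0.379), with no overlap, and *Pms2*, which nicks the strand to be repaired, at 8.87 and 8.58 with IR and 8.88 and 8.90 without (-0.17). *Ercc1*, which with Ercc4 forms the nuclease that cuts beside bulky lesions, was at 9.31 and 8.24 with IR and 9.85 and 9.33 without (-0.82, adjusted p = 0.334), apart by a small margin. *Ercc4* itself lay the other way, with 9.0 and 9.47 with IR and 8.77 and 8.96 without (0.37, adjusted p = 0.408), but its other probe sets gave 0 to 0.02. *Ercc2* and *Ercc3*, the helicases of the repair and transcription complex, gave 0.01 and -0.28, with *Ercc2* at 8.59 and 8.19 with IR and 8.72 and 8.05 without. *Fanca*, *Fancd2* and *Fancg*, of the pathway that clears cross-links between strands, gave -0.35, -0.16 and -0.29 with overlapping groups. *Fancd2* was at 7.82 and 7.02 with IR and 7.81 and 7.34 without, and *Fancg* at 8.73 and 7.87 with IR and 8.76 and 8.41 without, both low on replicate 2. *Rad18*, the ligase that marks PCNA at stalled forks, gave -0.25 with values of 9.74 and 9.02 with IR and 9.78 and 9.49 without.

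Over the 40 members together, 29 had a log2 fold change below 0 in LN T cells after IR (49.1% of all genes did), with a median of -0.28 (0.01 over all genes). Both arrays with IR lay below both without for 13 members (19.5% of all genes) and above both for 4 (21.8%). This median depends on single arrays. Without replicate 2 of LN T cells with IR it was 0.07 with 19 members below 0, and without replicate 1 it was -0.60 with 32 members below 0. Without replicate 1 of LN T cells without IR it was -0.12 and without replicate 2 it was -0.45. With cyclic loess it was -0.17. Without replicate 1 of LN T cells with IR, 12 members were called (*Rad52* and *Xrcc6* higher, and *Ung*, *Lig1*, *Brca1*, *Brca2*, *Rad50*, *Mdc1*, *Ercc1*, *Lig4*, *Nbn* and *Chek1* lower). With the arrays scaled to T cell identity genes, a step that moves all genes on an array alike, the medians were 0.00 for the members and 0.29 for all genes. For 20 of 40 members the 95% interval lay within -1 and 1 (75.9% of all genes). The checkpoint genes kept a median below 0 under each of these settings (-0.92 to -0.20).

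The second comparison asked the same of tumor T cells, where the arrays of a group lay closer together. With IR the members' median difference between replicates was 0.11 in tumor and 0.73 in LN T cells. Without IR it was 0.15 and 0.34. The spread in the test is shared by the 4 groups, so p-values and intervals for tumor T cells also carry that of LN arrays. None of the 40 members passed the test after IR (1, *Ung*, under the settings named above), against 0.0989% of all genes (18 genes), while 5 members had an unadjusted p under 0.05 (16.6% of all genes did). Their median log2 fold change was -0.06, against 0.09 over all genes, and 24 of 40 lay below 0 (40.3% of all genes). The median did not keep its sign under other scalings: with cyclic loess it was 0.01 with 20 of 40 below 0 (44.6% of all genes), and after scaling to T cell identity genes it was 0.16 with 15 of 40 below 0 (21% of all genes, whose median was then 0.31). Both arrays with IR lay below both without for 20 members (26% of all genes) and above both for 8 (41.4%). For 27 of 40 the 95% interval lay within -1 and 1 (79.9% of all genes).

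The checkpoint genes had the lowest median of the 8 role groups in tumor T cells (-0.41), and for 7 of 8 both arrays with IR lay below both without, as for 26% of all genes. In the same comparison macrophage and monocyte markers had a median of -1.14 with 14 of 15 below 0, and T cell identity genes, given above, also lay lower. None of either list was called, and their part in the members' values was not tested. *Chek1* was at 8.38 and 8.59 with IR and 8.84 and 9.03 without (log2 fold change -0.45, adjusted p = 0.54). *Mdc1* was at 7.72 and 7.47 with IR and 7.94 and 8.22 without (-0.48, adjusted p = 0.453), and *Atr*, which responds to stalled forks, at 8.96 and 8.98 with IR and 9.49 and 9.43 without (-0.49, adjusted p = 0.323). *Atm* was at 10.11 and 9.92 with IR and 10.41 and 10.37 without (-0.38). *Chek2*, at 6.55 and 7.00 with IR and 7.10 and 7.31 without (-0.43), *Nbn* (-0.38) and *Rad50* (-0.07) were the other genes apart, and *Trp53bp1* was at 10.91 and 11.04 with IR and 10.94 and 10.87 without. In both tissues both arrays with IR lay below both without for 11 of the 40 members (10.6% of all genes). These were *Ung*, *Atm*, *Atr*, *Chek1*, *Mdc1*, *Nbn*, *Palb2*, *Xrcc5*, *Lig4*, *Lig3* and *Ercc1*, of which *Ung* in LN T cells passed the test.

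In end joining, *Xrcc4*, *Xrcc5*, *Prkdc* and *Lig4* had both arrays with IR below both without in tumor T cells. *Lig4* was at 5.31 and 5.23 with IR and 6.19 and 6.01 without (log2 fold change -0.83, adjusted p = 0.3, again near the lower quartile of the arrays). *Xrcc6* was at 9.47 and 9.30 with IR and 8.79 and 8.46 without, above on both arrays (0.76, SE 0.61). The recombination genes were level, with *Brca1* at 8.57 and 8.55 with IR and 8.43 and 8.76 without, *Brca2* at 8.37 and 8.28 with IR and 8.25 and 8.26 without, and *Rad54l* at 8.81 and 8.97 with IR and 8.72 and 8.91 without. *Palb2* (-0.37) was lower on both arrays and *Rad52* (0.22) higher. *Wrn* was at 10.05 and 9.99 with IR and 10.01 and 9.86 without, and *Blm* at 7.23 and 7.11 with IR and 7.25 and 7.46 without (0.09 and -0.18). *Apex1* had the largest positive value in base excision, at 10.90 and 10.74 with IR and 10.46 and 10.35 without (0.41, adjusted p = 0.314), but its 2 other probe sets gave -0.08 and 0.04. *Ogg1* was at 8.73 and 8.77 with IR and 8.60 and 8.39 without. *Neil1*, in contrast to LN T cells, was at 7.39 and 7.44 with IR and 7.49 and 7.11 without. *Parp1*, *Lig1*, *Lig3*, *Xrcc1*, *Parp2* and *Mutyh* lay between -0.22 and 0.09. *Ercc2* was at 8.38 and 8.44 with IR and 8.20 and 8.03 without (0.30), and *Fancg* at 8.33 and 8.36 with IR and 8.61 and 8.63 without (-0.27, adjusted p = 0.636). *Ercc1* was at 9.30 and 9.24 with IR and 9.44 and 9.58 without, lower on both arrays (-0.24). *Msh6* was at 9.59 and 9.48 with IR and 9.42 and 9.36 without, higher on both (0.15). *Fancd2*, at 7.29 and 7.29 with IR and 7.10 and 7.36 without, *Rad18*, at 9.63 and 9.92 with IR and 9.50 and 9.66 without, and *Pms2*, at 8.50 and 8.40 with IR and 8.43 and 8.58 without, overlapped between groups.

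The 2 responses were then set against each other. No member's IR effect differed between tumor and LN T cells by the interaction test, and neither did that of any gene (0% of 18193 called, 5.63% with an unadjusted p under 0.05, and 1 of 40 members, *Neil1*). For *Neil1* the IR effect in tumor minus that in LN was -0.68 (SE 0.25, adjusted p = 0.782). For *Ung* it was 0.08 (SE 0.50, 95% interval -1.09 to 1.25), an interval that also holds differences as large as 1, and the sign turned on leaving out single arrays (-0.41 to 0.57). *Ercc4* had non-overlapping arrays in opposite directions, lower on both arrays with IR in tumor T cells (8.44 and 8.45 with IR, 8.64 and 8.71 without) and higher on both in LN T cells, and the difference of -0.60 did not pass (adjusted p = 0.782). This holds for the probe set used, and the other probe sets of *Ercc4* gave differences of -0.18, -0.01 and 0.17. The IR fold change was below 0 in both tissues for 21 of 40 members (52.5%, against 29.7% of all genes), and in 20 of these 21 it was further below 0 in LN. The median interaction of the members was 0.20, against 0.12 over all genes. It was -0.10 without replicate 2 of LN T cells with IR and 0.46 without replicate 1, and 0.05 without replicate 1 of LN T cells without IR and 0.31 without replicate 2, so which tissue had the larger response in these genes depends on single arrays. For 12 of 40 members the 95% interval of the interaction lay within -1 and 1 (61.6% of all genes), and for the rest it reached a 2-fold difference or more.

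**Figure D3:**
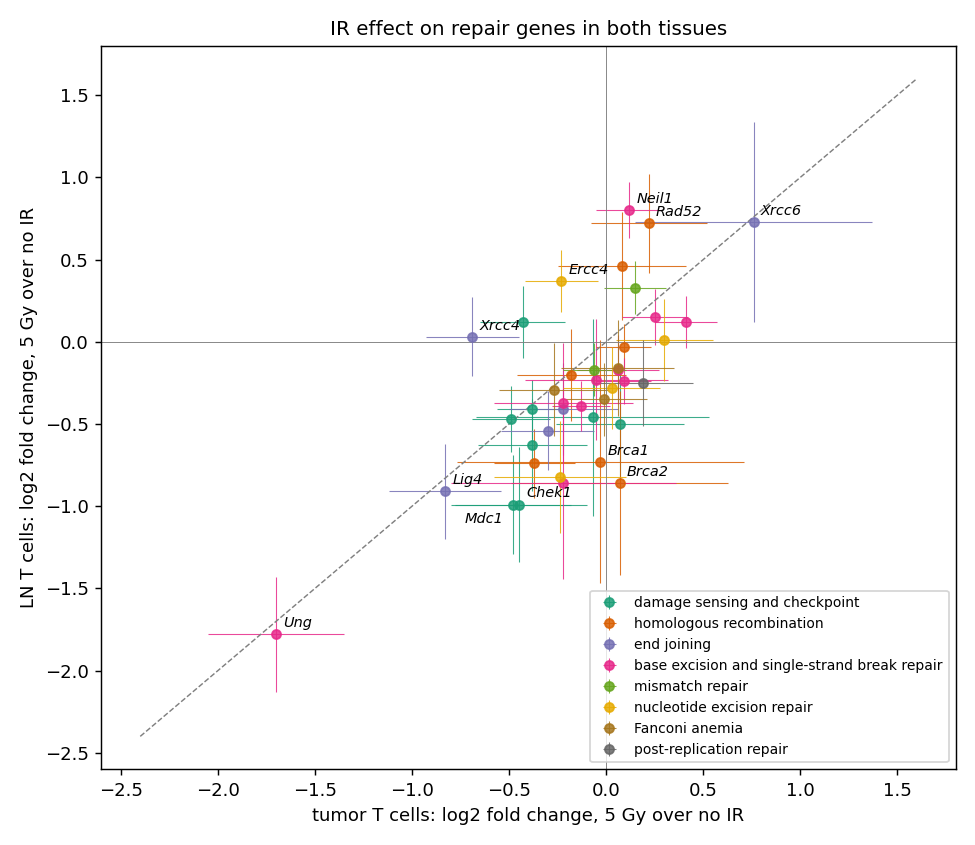
Log2 fold change of 40 repair genes, IR over no IR, in tumor T cells (horizontal) and LN T cells (vertical), with the standard error of each and the line of equal effect (dashed). *Ung* lies near the line at -1.70 and -1.78, 20 of the 21 genes below 0 in both tissues lie under the line, and *Neil1* and *Ercc4* lie above it.

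The third comparison set tumor against LN T cells after IR. *Xrcc4* was the member that passed, and it was lower in tumor T cells. It had values of 7.90 and 7.98 in tumor T cells with IR and 9.30 and 9.17 in LN T cells with IR, and of 8.59 and 8.66 in tumor T cells without IR and 8.84 and 9.58 in LN T cells without IR. The 2 arrays of tumor T cells with IR were the lowest of the 8. The log2 fold change of -1.29 (SE 0.24, 95% interval -1.85 to -0.73, adjusted p = 0.0223) compares with -0.58 without IR (adjusted p = 0.273). Called lower in this comparison were 2% of all genes, and 6.8% in either direction. Of the gene's 2 probe sets the one used gave the call, and the other gave -0.40 (adjusted p = 0.276). Without replicate 1 or replicate 2 of tumor T cells with IR the adjusted p was 0.136 and 0.138.

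*Neil1* and *Ercc4* passed the adjusted p in this comparison with a fold change short of 1, as 12.9% of all genes did without the fold limit (with *Xrcc4*, 3 of 40 members). *Neil1* was at 7.39 and 7.44 in tumor T cells with IR, against 8.24 and 8.12 in LN T cells with IR (-0.76, adjusted p = 0.0432). *Ercc4* was at 8.44 and 8.45, against 9.0 and 9.47 (-0.78, adjusted p = 0.0491), and its 3 other probe sets gave -0.38 to -0.20. Over the members the median was 0.05 (0.06 over all genes), with 17 of 40 below 0 (42.5% of all genes). Without replicate 2 of LN T cells with IR the median was -0.19 with 29 of 40 below 0, and without replicate 1 it was 0.25 with 13 of 40 below 0. Members apart on all arrays were 6 higher (30.1% of all genes) and 8 lower (20%) in tumor T cells. At an unadjusted p under 0.05 there were 5 of 40 (21.7% of all genes), and for 25 of 40 the 95% interval lay within -1 and 1 (72% of all genes). The calls also turned on the LN arrays. Without replicate 1 of LN T cells with IR 9 members were called, of which *Brca1*, *Brca2*, *Lig1*, *Rad50* and *Ercc1* were higher and *Xrcc4*, *Rad52*, *Xrcc6* and *Ercc4* lower in tumor T cells. Without replicate 2 only *Xrcc4* and *Ung* were called, both lower. The macrophage, fibroblast and B cell signals and 2 of the 8 carcinoma markers given above moved with the comparison of the tissues, with and without IR. Their part in the members' values was not tested.

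Without IR no member differed between tumor and LN T cells by the test, where 5.54% of all genes were called (8.32% without the fold limit, and again no member). At an unadjusted p under 0.05 there were 3 of 40 members (17.7% of all genes). The differences ranged from -0.72 for *Ung*, at 9.36 and 9.53 in tumor T cells and 10.45 and 9.88 in LN T cells (adjusted p = 0.358), to 0.45 for *Rad54l*, at 8.72 and 8.91 in tumor T cells and 8.77 and 7.96 in LN T cells (adjusted p = 0.545). The other probe sets of *Rad54l* gave 0.50, -0.27 and -0.06. *Apex1* was at 10.46 and 10.35 in tumor T cells and 10.81 and 10.87 in LN T cells (-0.43, adjusted p = 0.222). *Nbn* was at 8.37 and 8.39, against 9.11 and 8.62 (-0.48, adjusted p = 0.438), and *Pms2* at 8.43 and 8.58, against 8.88 and 8.90 (-0.38, adjusted p = 0.269). Both tumor arrays lay below both LN arrays for 12 members (35.2% of all genes) and above for 1, *Atr*, at 9.49 and 9.43 in tumor T cells and 9.32 and 9.07 in LN T cells (21.3%). The difference was below 0 for 32 of 40 members (62.8% of all genes), with a median of -0.11, against -0.09 over all genes. Without replicate 1 of LN T cells without IR the median was 0.01 with 19 of 40 below 0, without replicate 2 it was -0.26 with 35 below 0, and without replicate 2 of tumor T cells without IR it was -0.18 with 28 below 0. With scaling to T cell identity genes the medians were 0.17 for the members and 0.19 for all genes. For 29 of 40 members the 95% interval lay within -1 and 1 (76.3% of all genes).

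The members differed more between the arrays of LN T cells than most genes did. In LN T cells with IR the median difference in size between replicates was 0.73 for the members, 0.27 for all genes and 1.21 for a list of 25 S phase and replication genes, and in LN T cells without IR it was 0.34, 0.19 and 0.43. In tumor T cells with IR it was 0.11, 0.14 and 0.12, and without IR 0.15, 0.14 and 0.15. In LN T cells with IR 33 of 40 members were higher on replicate 1 (82.5%, against 56.1% of all genes), and 9 differed by more than 1 (22.5%, against 8.54%). *Brca1* differed by 2.44, *Lig1* by 1.95, *Brca2* by 1.93 and *Rad50* by 1.80. These are genes used in replicating cells, and *Rad52* and *Xrcc6* ran the other way.

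The mean of the S phase list was 9.64 and 9.70 in tumor T cells with IR, 9.75 and 9.83 in tumor T cells without IR, 9.75 and 8.72 in LN T cells with IR and 10.24 and 9.79 in LN T cells without IR. It was lowest on replicate 2 of LN T cells with IR. *Mcm5*, a subunit of the replicative helicase, was at 12.05 and 10.83 there and between 11.63 and 12.53 on the other 6 arrays. Across the 8 arrays the members followed this mean with a median correlation of 0.72 (0 over all genes), and 18 of 40 had a correlation over 0.8 (45%, against 9.85% of all genes). The 8 points share pools of mice and normalization, and the correlation is a description. Through the probe sets used, it was highest for *Ercc1* (0.99), *Chek1* (0.97) and *Lig1* (0.96). It was below 0 for *Rad52* (-0.92), *Xrcc6* (-0.89), *Ogg1* (-0.76), *Ercc4* (-0.64) and *Neil1* (-0.60), among others. It was 0.67 for *Ung* and -0.13 for *Xrcc4*. Of the 7 members with the E2F-like motif, *Lig1*, *Brca2* (0.91), *Mdc1* (0.91) and *Fancg* (0.90) had high values, and *Chek2* (0.19), *Msh6* (-0.25) and *Xrcc6* did not. *Ercc1* and *Chek1*, the highest of all members, had no such motif in the windows searched. With or without the motif, 18 of the 40 members were over 0.8, and a link between motif and correlation was not tested. Cell cycle transcripts moved with the arrays in this way, and their part in the IR values of the members was not tested. Targets of p53 lay close on the LN replicates, with a list mean of 10.33 and 10.20 with IR and 8.42 and 8.34 without.

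**Figure D4:**
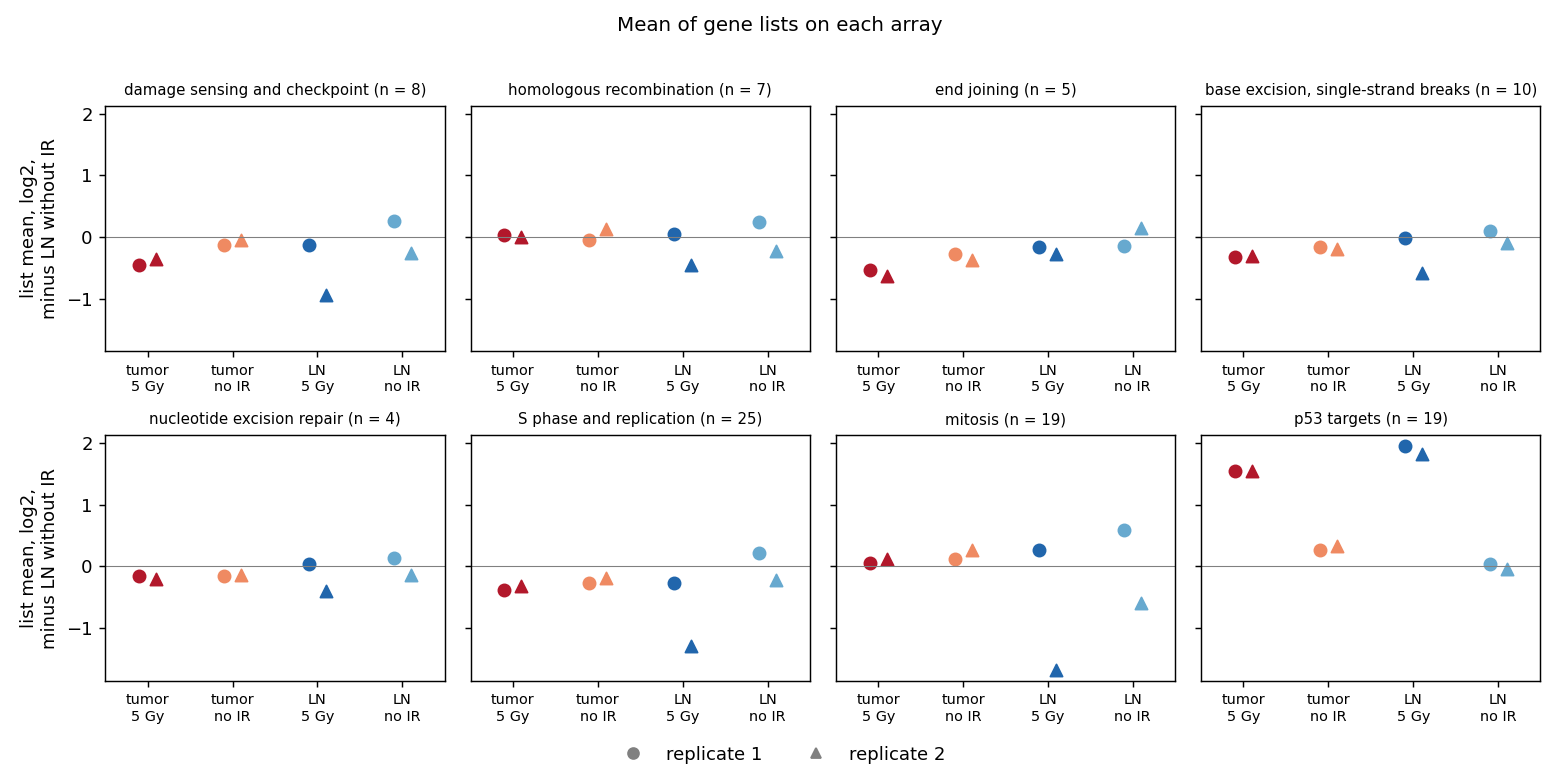
Mean log2 value of 5 groups of repair genes and of the S phase, mitosis and p53 target lists on each array, minus the mean of the 2 arrays of LN T cells without IR (circle, replicate 1, triangle, replicate 2). The checkpoint, recombination, base excision and nucleotide excision means and the S phase and mitosis means are lowest on replicate 2 of LN T cells with IR, while the p53 targets are high on all 4 arrays with IR.

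Several members were read by more than 1 probe set, 91 in all, and 17 members by 1. Besides *Ung* and *Xrcc4*, further probe sets of *Parp1* (-1.23, adjusted p = 0.0132, mean level 5.29, below the arrays' lower quartile) and *Rad18* (-1.30, adjusted p = 0.073) were called lower in tumor than in LN T cells after IR, where the probe sets used for these genes gave 0.04 and 0.39. Without IR the same probe set of *Parp1* gave -0.98 (adjusted p = 0.0325), short of the fold limit, and that of *Rad18* gave 0.01. The second probe set of *Xrcc6* did not follow the first: after IR in LN T cells it gave -0.23, against 0.73. For *Brca1* the 3 other probe sets gave 0.02 to 0.26 in LN T cells, against -0.73 for the one used. Those of *Ercc1* gave -0.12 to 0.11 there, against -0.82. Those of *Rad54l* gave 0.50, -0.52 and -0.08 there, against 0.46. The other probe sets of *Atr*, at mean levels of 7.42 and 3.11, gave 0.03 and 0.15 there, against -0.47. In tumor T cells after IR they gave -0.46 and -0.51, against -0.49. The other probe set of *Rad50* gave -0.87 in tumor against LN T cells with IR (adjusted p = 0.135), against 0.78 for the one used. For *Chek1* all 5 lay below 0 in LN T cells (-1.11 to -0.07), and in tumor T cells 3 lay below and 2 above.

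The wider pathway was read through 77 further measured genes of the same routes. Only 1 of these was called in any comparison, *Polk*, a polymerase that copies past damaged bases. It was at 10.02 and 9.58 in tumor T cells with IR, 9.02 and 9.01 in tumor T cells without IR, 10.34 and 10.96 in LN T cells with IR and 8.31 and 7.89 in LN T cells without IR. It was thus higher with IR on all arrays of each tissue, by 2.55 in LN T cells (SE 0.26, adjusted p = 0.0125) and by 0.79 in tumor T cells (adjusted p = 0.298), and the difference between the 2 effects of -1.76 did not pass (adjusted p = 0.673). The 16 other checkpoint genes had a median of -0.16 in tumor and -0.48 in LN T cells after IR, and none passed. *Rad1*, a clamp subunit that activates Atr, was at 6.43 and 6.36 in tumor T cells with IR, 7.01 and 6.99 in tumor T cells without IR, 7.06 and 6.88 in LN T cells with IR and 7.59 and 7.84 in LN T cells without IR. It was lower in tumor than in LN T cells with and without IR (-0.58 and -0.72, adjusted p = 0.0656 and 0.0418), short of the fold limit.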

How the data were processed

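Gene expression was measured on 8 Affymetrix arrays of pooled T cells, in 4 groups of 2. The authors normalized the scanned arrays by RMA, which corrects background, equalizes the distributions of the arrays and gives 1 value per probe set. They deposited these as log2 values in a table of 45101 probe sets, used here without change. The RMA version was not given in the sources used here. Probe sets were named from the array's annotation (34945 carry 1 symbol, 932 several, 9160 none, and 64 are controls), and all 40 measured members matched a RefSeq symbol. A gene was the probe set naming only that gene with the highest mean over the arrays.

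limma 3.58.1 in R 4.3.3 was fitted by least squares to all 8 arrays over 35877 annotated probe sets (4 residual and 3.13 prior degrees of freedom), with Benjamini-Hochberg adjustment, for 5 contrasts. Calls needed an adjusted p below 0.1 and a log2 difference of 1 or more in size, the thresholds of the limma analysis in the study's methods. That analysis used a robust fit, which was an alternative here, and the study kept genes that also passed a second test (SAM), which was not run here. The fit was also run on simulated data with independent noise on each array. Those data held no deviation shared by arrays, so the run cannot show how the fit behaves where arrays deviate together. Intervals are 95% from the moderated standard error. Each array was treated as a sample, and their number limits the precision. The main fit held no term for experiment. If the 2 arrays of a group come from different experiments, differences between these enter the spread between arrays. Alternatives were array weights, a mean-variance trend, a replicate block, fits on only the arrays compared, other thresholds, the most variable probe set, scaling to T cell identity genes, cyclic loess, a filter on dim probe sets and leaving out each array.

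The members, lists and alternatives were chosen with earlier results of these data known. All members are named, and those called, and the 1 of highest and the 1 of lowest mean level in each role group, are given on every array. The pairing of replicate numbers was checked: deviations of same-numbered arrays correlated at 0.43 within each tissue and at -0.14 to 0.07 across tissues. Over the members they correlated at 0.68 in LN, 0.20 in tumor and -0.41 to -0.10 across tissues. Deviations can differ between tissues of the same mice, so these values cannot show whether the numbers pair the groups across tissues.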

Additional observations from a re-analysis of the deposited data

How the results depend on the processing

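The fold changes of *Ung* in 3 comparisons, *Neil1* in 2, and *Palb2*, *Xrcc4* and *Ercc4* in 1 each were followed under the alternatives. Of their values 128 kept their direction and their side of the threshold, 14 no longer passed and 10 newly passed. The other 4 turned sign, all for the difference between tissues of the IR effect on *Ung*, near 0 at 0.08 and between -0.41 and 0.57 on leaving out each array. Members called after IR in LN T cells, 1 in the main setting (*Ung*), were 0 with array weights, a mean-variance trend, the replicate block, only the 4 arrays compared or an adjusted p under 0.05, and 2 when the arrays were scaled to T cell identity (*Ung* and *Neil1*). After IR in tumor T cells 0 members became 1 (*Ung*) with robust regression, array weights, a replicate block within each tissue (an alternative chosen after seeing the data) and only the 4 arrays compared. In tumor against LN T cells with IR, 1 member became 2 with robust regression (*Brca2* and *Xrcc4*) and with the most variable probe set (*Xrcc4* and *Rad18*), and 3 with no fold limit. Over all genes, 1008 called in tumor against LN T cells without IR became 1514 with no fold limit, and 1237 with IR became 2352. The 191 genes called after IR in LN became 504 with robust regression, 69 with array weights, 505 with the block within tissues, 0 with only the 4 arrays, 317 with T cell identity scaling (299 higher and 18 lower, against 143 and 48) and 100 at an adjusted p under 0.05. The 18 genes called after IR in tumor became 177, 200, 38, 173, 36 and 10 under those 6 settings in the same order, and the 0 genes of the interaction became 18 with robust regression and 1 with the trend. The block changed no other call of a member. Leaving out each array in turn gave 0 members without IR between tissues (540 to 1181 genes), 0 to 9 with IR (568 to 2412 genes), 0 to 12 after IR in LN (67 to 1789), 0 to 1 after IR in tumor (0 to 90) and 0 to 1 for the interaction (0 to 770). The member called there was *Brca2*, without replicate 1 of LN T cells with IR. The causes were not tested, beyond the number of arrays and genes that enter each fit.

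With 2 arrays a group, the number of arrays limits what can be called. The median of the members relative to that of all genes was -0.29 after IR in LN and -0.17 with cyclic loess, and in tumor -0.15 and -0.02 with cyclic loess.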

Other observations

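Between the tissues without IR, 3 of 77 genes of the wider repair pathway passed the adjusted p, all short of the fold limit (8.32% of all genes passed without that limit). With IR 7 of 77 did (12.9%). The genes named below and *Rad1*, given above, are part of these. *Smug1*, another uracil glycosylase, was at 8.35 and 8.64 in tumor T cells without IR, against 7.85 and 7.71 in LN T cells without IR (log2 fold change 0.72, adjusted p = 0.0465). *Mlh3*, a mismatch repair partner, lay the other way, at 6.15 and 6.28 in tumor T cells, against 6.74 and 7.20 in LN T cells (-0.76, adjusted p = 0.0901). With IR, *Ddb2*, which recognizes ultraviolet lesions and is a p53 target in human cells, was at 10.48 and 10.52 in tumor T cells, against 10.08 and 9.52 in LN T cells (0.70, adjusted p = 0.0904). Its IR effect was 0.12 in tumor and 0.02 in LN T cells. *Apex2*, a relative of Apex1, gave -0.99 in tumor against LN T cells with IR (adjusted p = 0.0482), and *Eme1*, a nuclease subunit that resolves joined chromosomes, gave 0.80 (adjusted p = 0.0964).

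*Polk* was the repair gene furthest from the members in its response, at 2.55 in LN T cells. In the same cells *Mdm2*, the p53 feedback ligase, was at 12.06 and 12.17 with IR and 10.55 and 10.24 without IR (1.72, adjusted p = 0.00883), and in tumor T cells at 11.60 and 11.46 with IR and 10.58 and 10.65 without IR (0.91, adjusted p = 0.216).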
